A study of Homo sapiens with 2 samples.

Results

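FLAG-SMARCA4 occupancy at the cadherin and protocadherin genes was compared between parental TOV21G cells and EZH2 inhibitor-resistant (EIR) cells. Members were the protein-coding genes of GENCODE release 44 on hg19 whose symbol was CDH or PCDH with a number, or began with PCDHA, PCDHB or PCDHG. They came to 89 of the 20176 protein-coding genes of the annotation, and formed 37 loci when the 53 clustered protocadherin genes on chromosome 5 were counted as 1 locus. Their transcription start sites (TSSs) and gene bodies held 27 of the 12896 regions in which FLAG-SMARCA4 differed between the libraries, of which 7 lay within 1 kb of a TSS and 20 elsewhere in a gene body. In the parental cells occupancy was higher at the TSS regions of *CDH2*, *CDH22*, *CDH23* and *CDH24*, and in the EIR cells it was higher at those of *CDH1*, *CDH3* and an internal start of *CDH23*. The chromosome 5 clusters held no region in any gene.

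TOV21G is a line from an ovarian clear cell carcinoma with mutated *ARID1A*, and ARID1A is a subunit of the SWI/SNF chromatin remodelling complex whose ATPase is SMARCA4 (BRG1) or SMARCA2. The parental group was 1 library of TOV21G cells. The EIR group was 1 library of resistant clone 3, which was selected from TOV21G cells by GSK126, an inhibitor of the histone methyltransferase EZH2, at 5, 10, 15 and then 20 μM. Both carried a FLAG tag placed on SMARCA4 at its own locus by CRISPR in single colonies, so each library stands for 1 tagged line and the EIR library for 1 resistant clone. The values compare these libraries, and clone, tagging and resistance cannot be told apart.

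In chromatin immunoprecipitation sequencing (ChIP-seq), DNA bound by a protein is recovered with an antibody, here to FLAG, and the number of reads in a region (tags) rises with occupancy. The library totals behind the deposited values were 25.6 M tags in parental cells and 35.0 M tags in EIR cells, so 1 EIR tag counted as 0.733 tags on the parental scale. The deposited lists hold 10792 parental-higher and 2104 EIR-higher regions, each called against the other library as its control. A gene without a region may be bound equally in both libraries or in neither. Each fold below is the ratio of tags in the direction of its list after scaling to equal totals, with a 95% Clopper-Pearson interval for counting error. The *P* beside it comes from an exact binomial test (two-sided) on the 2 tag counts. Because the regions were listed for their difference between these same libraries, the folds and *P* values describe them and are no independent test. The authors report loss of SMARCA4 in EIR cells and less SMARCA4 binding there as a whole. Scaling to equal totals cannot show such a change, so higher occupancy here means a larger share of a library's tags.

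Cadherins are calcium-dependent adhesion proteins. Type I classical cadherins, such as E-cadherin (*CDH1*), N-cadherin (*CDH2*), P-cadherin (*CDH3*), R-cadherin (*CDH4*) and M-cadherin (*CDH15*), bind their own kind on a neighbouring cell and are tied to actin through catenins. Epithelial cells usually hold E-cadherin, and a shift from E-cadherin to N-cadherin is a mark of the epithelial to mesenchymal transition. Type II cadherins have related structures and pair more broadly. Protocadherins lack the catenin-binding tail, and those of the chromosome 5 clusters are made from stochastically chosen promoters, mainly in neurons.

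The sequences under 5 of the TSS regions are printed as examples of their base composition. Each is a stretch of 120 bases of the GRCh37 reference, the build of the tag lists, on its forward strand, with CpG dinucleotides in capitals. The *CDH2* stretch is chr18:25757707-25757826, the stretch just before the canonical *CDH23* start is chr10:73156557-73156676, that of *CDH1* is chr16:68772042-68772161, that of *CDH3* is chr16:68679475-68679594, and that of the internal *CDH23* start is chr10:73270611-73270730.
CDH2, parental-higher: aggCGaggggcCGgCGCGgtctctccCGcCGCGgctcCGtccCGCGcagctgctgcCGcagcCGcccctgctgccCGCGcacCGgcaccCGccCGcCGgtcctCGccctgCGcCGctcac
CDH23 canonical start, parental-higher: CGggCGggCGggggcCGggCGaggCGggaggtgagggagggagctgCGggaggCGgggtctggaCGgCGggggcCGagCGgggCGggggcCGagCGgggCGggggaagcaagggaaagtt
CDH1, EIR-higher: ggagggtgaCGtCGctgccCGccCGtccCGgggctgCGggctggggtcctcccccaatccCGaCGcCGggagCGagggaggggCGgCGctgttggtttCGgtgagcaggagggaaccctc
CDH3, EIR-higher: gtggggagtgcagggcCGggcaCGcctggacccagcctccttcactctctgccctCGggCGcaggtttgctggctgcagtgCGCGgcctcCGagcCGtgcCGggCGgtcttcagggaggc
CDH23 internal start, EIR-higher: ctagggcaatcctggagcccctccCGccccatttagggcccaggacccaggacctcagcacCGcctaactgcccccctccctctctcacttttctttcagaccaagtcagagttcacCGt
The stretches held 21 CpGs in *CDH2*, 16 at the canonical *CDH23* start, 13 in *CDH1*, 10 in *CDH3* and 3 at the internal *CDH23* start. Stretches of the same length from the other parental-higher TSS regions held 19 in *CDH24* and 12 in *CDH22*, so the lists overlapped in this count. The *CDH2* and canonical *CDH23* stretches lie off the centre of their regions, and the EIR-higher ones at the centre.

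Of the 37 loci, 6 (16.2%) had a TSS region in at least 1 of the lists, as against 24.6% of all protein-coding genes. Counted by gene, as the background is, the members with such a region were 6.74%. A parental-higher TSS region was found at 4 loci (10.8%, against 23.2% of all protein-coding genes) and an EIR-higher one at 3 loci (8.11%, against 1.96%). By gene these were 4.49% and 3.37% of the 89 members. With the 5′ end of the gene record in place of every annotated TSS, 1 locus (*CDH1*, 2.70%) had an EIR-higher region, against 0.966% of all protein-coding genes. *CDH23* had both lists at its TSSs. Of the 7 TSS regions 42.9% were EIR-higher, where 7.58% of the 5051 regions at protein-coding TSSs were. These shares rest on 3 and 4 regions, and no test of them against the other genes was made.

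**Figure D1:**
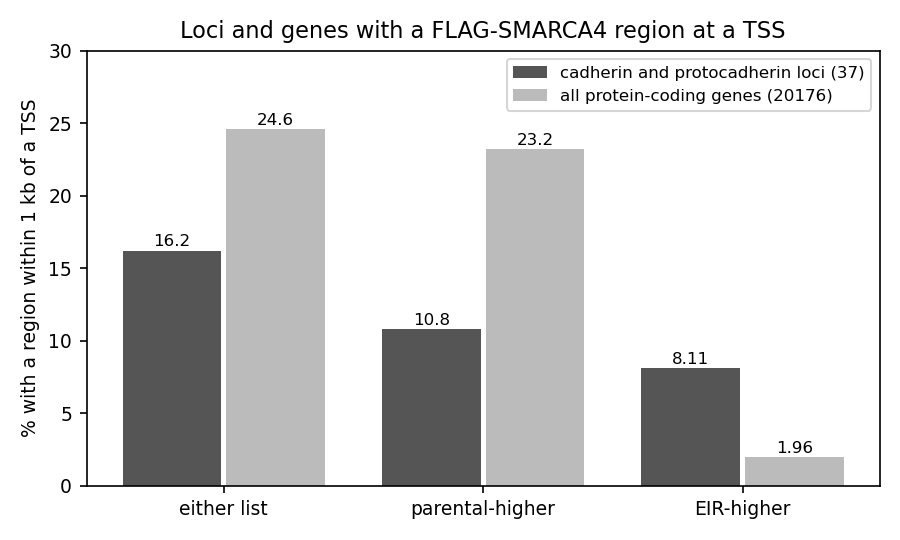
Bars give the percentage of the 37 cadherin and protocadherin loci (dark) and of all 20176 protein-coding genes (light) with a FLAG-SMARCA4 region at a TSS (1 kb or nearer), for either list and for each list. The loci stand lower in the parental-higher list (10.8% against 23.2%) and higher in the EIR-higher list (8.11% against 1.96%), where the members counted by gene are at 3.37%.

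A region at a TSS or in the body was found at 11 loci (29.7%, or 12.4% by gene), against 30.5% of all protein-coding genes. All 5 type I cadherins had one, and 3 of 5 had it at a TSS, where the share of all protein-coding genes was 24.6%. At *CDH1*, the EIR-higher region chr16:68771852-68772352 had 6 parental tags and 27 EIR tags, or 19.8 on the parental scale, a 3.30-fold difference (interval 1.33 to 9.77, exact binomial *P* = 4.47e-03). It began 657 bp downstream of the canonical TSS and reached from intron 1 into coding exon 2. A parental-higher region lay 2841 bp further into the gene, at chr16:68775193-68775693 in intron 2, with 20 parental and 6 EIR tags (4.4 scaled) and a 4.55-fold difference (1.76 to 13.8). The start of the E-cadherin gene thus held regions of opposite direction within 4 kb, and only the EIR-higher one was within 1 kb of a *CDH1* TSS. The start of an rRNA pseudogene, *RNA5SP429*, lay within 1 kb of the parental-higher one.

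*CDH3* stands next to *CDH1* on chromosome 16. Its EIR-higher region, chr16:68679285-68679785, had 4 parental tags and 24 EIR tags (17.6 scaled), a 4.40-fold difference (1.51 to 17.4, exact binomial *P* = 1.99e-03). It covered an annotated start, began 72 bp downstream of the canonical TSS and included coding parts of exons 1 and 2, and a start of the antisense gene *CDH3-AS1* was also within 1 kb. ChIP-seq tags do not tell the strands apart, so the region cannot be assigned to either gene. The EIR-higher regions of *CDH3* and *CDH1* were 92.067 kb apart. Outside *CDH1*, the surroundings within 1 Mb held 30 parental-higher and 3 EIR-higher regions, the latter with that of *CDH3* among them. A majority of parental-higher regions was usual, as 16.3% of all regions and 7.58% of those at protein-coding TSSs were EIR-higher.

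At *CDH2*, the parental-higher region chr18:25757565-25758065 had 19 parental tags and 8 EIR tags (5.9 scaled), a 3.24-fold difference (1.35 to 8.56, exact binomial *P* = 5.29e-03). It lay 471 bp upstream of the canonical TSS and covered the start of another transcript. It was thus in the opposite list to the EIR-higher region at the *CDH1* start and in the same list as the parental-higher region of *CDH1* intron 2. The deposited values are occupancy, and RNA levels were not analysed here.

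R-cadherin had no region within 1 kb of a TSS, but 4 parental-higher regions in its body and no EIR-higher one. The region chr20:59831061-59832951 in intron 2 had 103 parental tags and 67 EIR tags (49.1 scaled), the highest parental tags of any member region, with a 2.10-fold difference (1.53 to 2.90, exact binomial *P* = 1.77e-06). The region at chr20:59829650-59830150, 2333 bp from the TSS and across exon 2, had 23 and 10 tags and a fold of 3.14. At chr20:59837980-59838480, 16 and 6 tags gave a fold of 3.64. These 3 regions spanned 8.83 kb, and the fourth, at chr20:60023918-60024418 in the same intron, was 185.438 kb further on, with 25 and 13 tags and a fold of 2.62. Regions of the *CDH4* body numbered 5.81 per Mb, against 3.09 per Mb over all protein-coding gene bodies. The bodies of all members together were below that, with 1.60 per Mb, and with 0.913 per Mb when *CDH23* was left out.

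**Figure D2:**
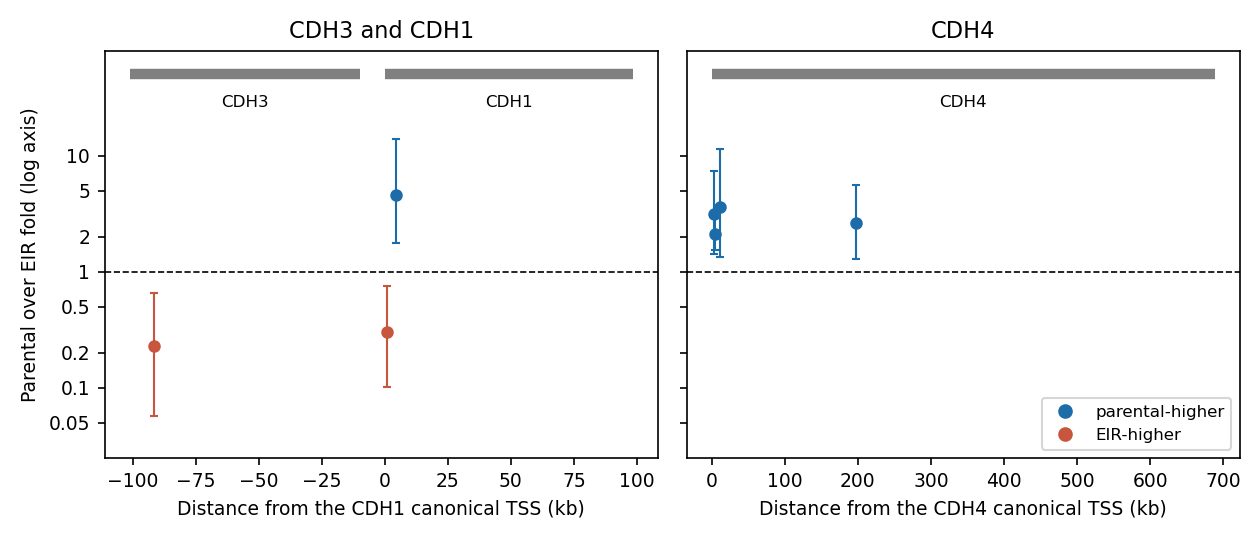
Parental over EIR fold (log axis) of the regions of *CDH3* and *CDH1* (left) and *CDH4* (right) against distance in kb from the canonical TSS of *CDH1* or *CDH4*. Bars are 95% intervals for counting error, the dashed line is equal tags after scaling to equal totals, and gray bars are the gene records. *CDH3* and *CDH1* each have an EIR-higher region at the start, the second region of *CDH1* is parental-higher, and the 4 regions of *CDH4* are parental-higher.

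M-cadherin, known from muscle, had an EIR-higher region at its far end. The region chr16:89261569-89262069 covered the end of exon 14, the last exon, with 3 parental and 24 EIR tags (17.6 scaled). The 5.86-fold difference (1.78 to 30.4) was the largest of the member regions, with a wide interval from 3 tags in the parental library. Within 1 Mb outside *CDH15*, 26 regions were parental-higher and 12 EIR-higher, and of those away from a protein-coding TSS 6 were parental-higher and 11 EIR-higher.

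Of the 13 type II cadherins, 2 had a region at a TSS or in the body, against 30.5% of all protein-coding genes. *CDH24* carried the most tags of the TSS regions, 84 parental and 67 EIR (49.1 scaled), in chr14:23526527-23527385 across its canonical TSS and exon 1. The start of a long noncoding RNA gene also lay within 1 kb, so the region cannot be assigned to 1 gene. It had the smallest difference of the member regions, 1.71-fold (1.23 to 2.39, exact binomial *P* = 1.24e-03), so the EIR library still held many tags there. *CDH22*, a cadherin first described in pituitary and brain, had regions of both lists. Its parental-higher region, chr20:44936189-44936821, lay 316 bp downstream of the TSS in intron 1 with 23 parental and 9 EIR tags (6.6 scaled), a 3.49-fold difference (1.55 to 8.56, exact binomial *P* = 9.73e-04). Its EIR-higher region, chr20:44858454-44860406 in intron 3, had 21 parental and 83 EIR tags (60.8 scaled), a 2.90-fold difference (1.78 to 4.93, exact binomial *P* = 2.29e-06), with the most EIR tags of all member regions. The other 11 type II genes, *CDH5* (VE-cadherin of endothelium), *CDH6*, *CDH7*, *CDH8*, *CDH9*, *CDH10*, *CDH11*, *CDH12*, *CDH18*, *CDH19* and *CDH20*, had none.

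**Figure D3:**
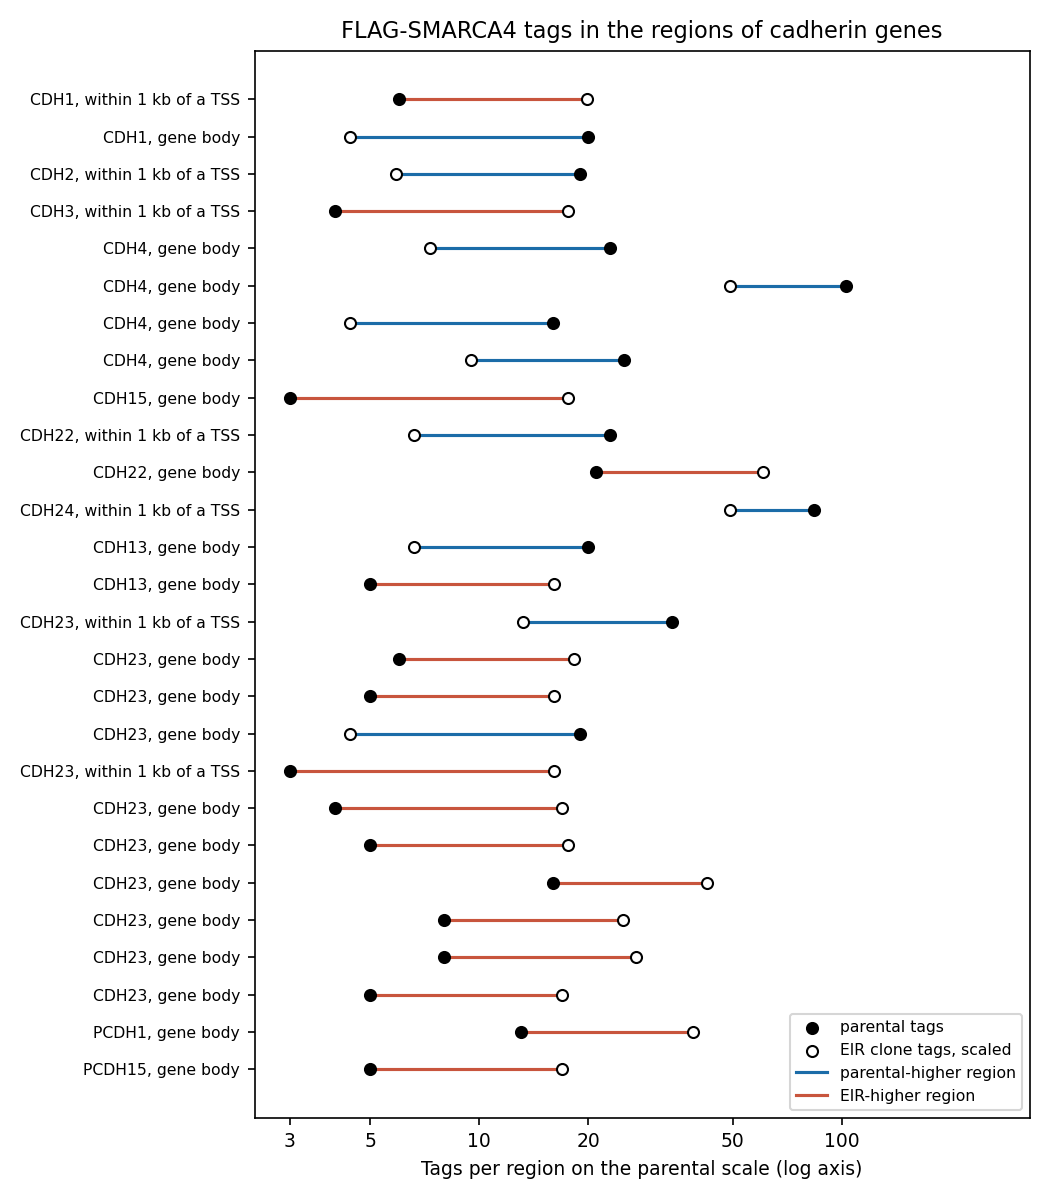
Each row is 1 of the 27 regions, in the order of family, gene and position along the gene. Filled circles are parental tags and open circles EIR tags scaled to the parental total (log axis), and the line is coloured by list. Most regions had few tags in the lower library, and those with over 40 scaled EIR tags were single regions of *CDH4*, *CDH22*, *CDH24* and *CDH23*.

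*CDH23* held 11 of the 27 regions, 9 of them EIR-higher. Cadherin 23 and protocadherin 15 form the tip links of inner ear hair cells, and both genes lie on chromosome 10. Over the canonical start, the parental-higher region chr10:73156498-73157174 (exon 1) had 34 parental and 18 EIR tags (13.2 scaled), a 2.58-fold difference (1.42 to 4.85, exact binomial *P* = 1.05e-03). The EIR-higher region chr10:73270421-73270921, 113744 bp downstream, covered an internal start and coding parts of exons 5 and 6, with 3 parental and 22 EIR tags (16.1 scaled) and a 5.38-fold difference (1.61 to 28.1, exact binomial *P* = 1.82e-03). The antisense gene *CDH23-AS1* also had a start within 1 kb of it, so this region too cannot be assigned to 1 gene. The canonical and the internal start of *CDH23* were thus in opposite lists.

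In the body of *CDH23*, 8 further EIR-higher regions lay 7.544 to 298.408 kb downstream of the canonical TSS. They had 4 to 16 parental and 22 to 58 EIR tags (16.1 to 42.5 scaled), and their folds ran from 2.66 to 4.21. The one with the most tags was chr10:73338226-73339660 in intron 9, with 16 and 58 tags, a 2.66-fold difference (1.51 to 4.95). Exact binomial tests of the 20 body regions of all members gave *P* from 1.77e-06 to 1.14e-02. The one parental-higher body region, chr10:73215835-73216335 in intron 3, had 19 and 6 tags and a fold of 4.32. It lay between EIR-higher regions in the same intron and in exons 5 and 6.

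The density in *CDH23* was 21.5 regions per Mb, of which 19.1 were EIR-higher. Over all chromosome 10 gene bodies it was 11.1 per Mb (3.11 EIR-higher) and over those of all chromosomes 3.09 per Mb (0.579 EIR-higher). Chromosome 10 held 16.6% of all regions away from protein-coding TSSs, and 31.1% of its regions there were EIR-higher, against 21.9% on all chromosomes. In gene bodies the EIR-higher share was 28.1% on chromosome 10 and 18.8% on all chromosomes. It was 65.0% in the 20 member body regions and 45.5% in the 11 left without *CDH23*. Without *CDH23*, member gene bodies held 0.415 EIR-higher and 0.498 parental-higher regions per Mb, both below the 0.579 and 2.51 of all protein-coding gene bodies. Over both lists and all positions 16.3% of regions were EIR-higher. Within 1 Mb of *CDH23* but outside it, 40 parental-higher and 14 EIR-higher regions lay away from a TSS. Parental-higher regions were likewise the majority on chromosome 10 and over all chromosomes together. The part that chromosome 10 plays in the *CDH23* values was not tested.

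**Figure D4:**
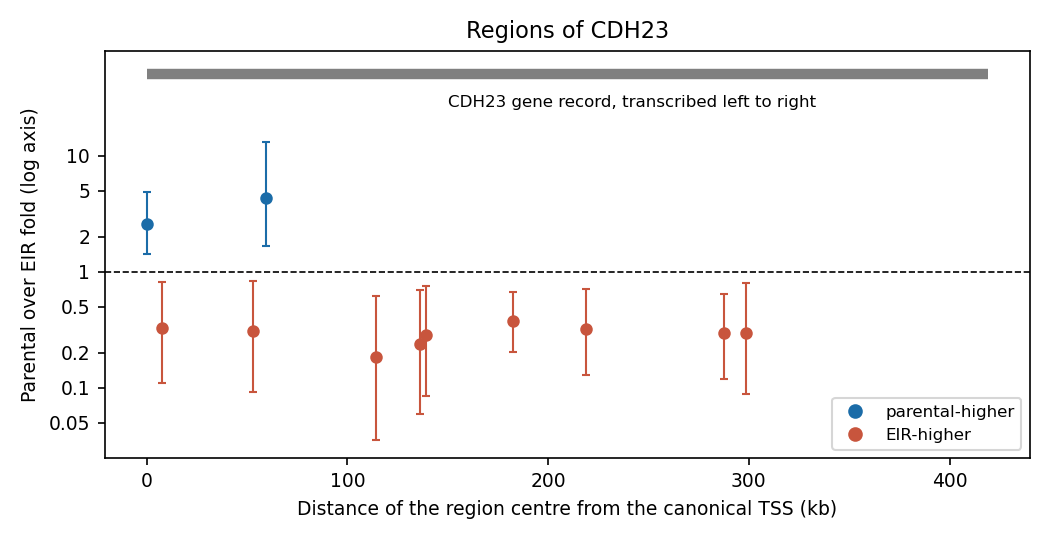
Parental over EIR fold (log axis) of the 11 regions of *CDH23* against the distance in kb of each region's centre from the canonical TSS, with 95% intervals for counting error and the gene record as a gray bar. The canonical start and 1 region of intron 3 are parental-higher, and 9 regions over 291.364 kb are EIR-higher.

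Among the other cadherins, *CDH13*, which encodes the membrane-anchored T-cadherin, had 1 body region of each list. The parental-higher one, chr16:82686886-82687386 in intron 1, had 20 and 9 tags and a fold of 3.03. The EIR-higher one, chr16:83782517-83783017 in intron 11, had 5 and 22 tags and a fold of 3.23. *CDH16*, *CDH17* and *CDH26* had no region.

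No protocadherin had a region within 1 kb of a TSS, where 24.6% of all protein-coding genes had one. Of the 13 non-clustered protocadherin genes, 2 had a body region, both EIR-higher. At a TSS or in the body, 30.5% of all protein-coding genes had a region. *PCDH1*, a protocadherin of airway epithelium, had chr5:141255501-141256275 in intron 1, 1699 bp from the nearest annotated TSS, with 13 parental and 53 EIR tags (38.9 scaled) and a 2.99-fold difference (1.61 to 5.98, exact binomial *P* = 1.47e-04). *PCDH15* had chr10:56814973-56815473 within its gene record but 253.982 kb upstream of the canonical start, with 5 and 23 tags and a fold of 3.37 (1.25 to 11.4). *PCDH7*, *PCDH8*, *PCDH9*, *PCDH10*, *PCDH11X*, *PCDH11Y*, *PCDH12*, *PCDH17*, *PCDH18*, *PCDH19* and *PCDH20* had none.

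The clusters hold 15 *PCDHA*, 16 *PCDHB* and 22 *PCDHG* genes over 726.824 kb, chr5:140165721-140892544. None of their starts or bodies had a region. The one region inside the span, chr5:140420442-140420942, lay between the *PCDHA* and *PCDHB* genes, 10.017 kb from *PCDHB1*, and was EIR-higher with 7 and 28 tags (20.5 scaled) and a fold of 2.93 (1.25 to 7.95). Since it belongs to no gene body, it was not among the 27. Outside the span the nearest regions were 60.238 kb before it, EIR-higher, and 96.111 kb after it, parental-higher. The 1 Mb on either side held 19 parental-higher and 7 EIR-higher regions. Cluster promoters are known for a shared element with the core CGCT, and these letters, on either strand, were in 51 of 52 RefSeq promoters of the clustered genes (98.1%) and in 70.0% of all 35116 promoters of the table, whose GRCh38 windows run from before each start to just after it. Since most promoters hold these letters, their presence alone does not show the element. Over all members, 26 loci with 78 genes had no region. From the TSSs of each such locus the nearest region was 10.017 to 8330.789 kb away, with a median of 1207.92 kb. The largest distance was that of *PCDH11Y* on chromosome Y.

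The TSS regions of the lists differed in base composition over a window wider than the printed stretches. Over the central 500 bp, the 4 parental-higher TSS regions had 77.2% to 79.0% GC and a ratio of observed to expected CpG of 0.873 to 1.09. The EIR-higher ones had 67.4% GC (*CDH1*), 72.4% (*CDH3*) and 56.4% (*CDH23*), with ratios of 0.696, 0.714 and 0.227. The groups did not overlap on either measure. Medians over all regions at protein-coding TSSs were 73.6% GC and a CpG ratio of 0.870 in the parental-higher list. In the EIR-higher list they were 60.6% and 0.465, so the order of the lists was not particular to the members. Body regions ran from 41.0% to 70.2% GC in the EIR-higher list, where *PCDH1* was highest with a ratio of 0.796, and from 45.6% to 58.6% in the parental-higher list.

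**Figure D5:**
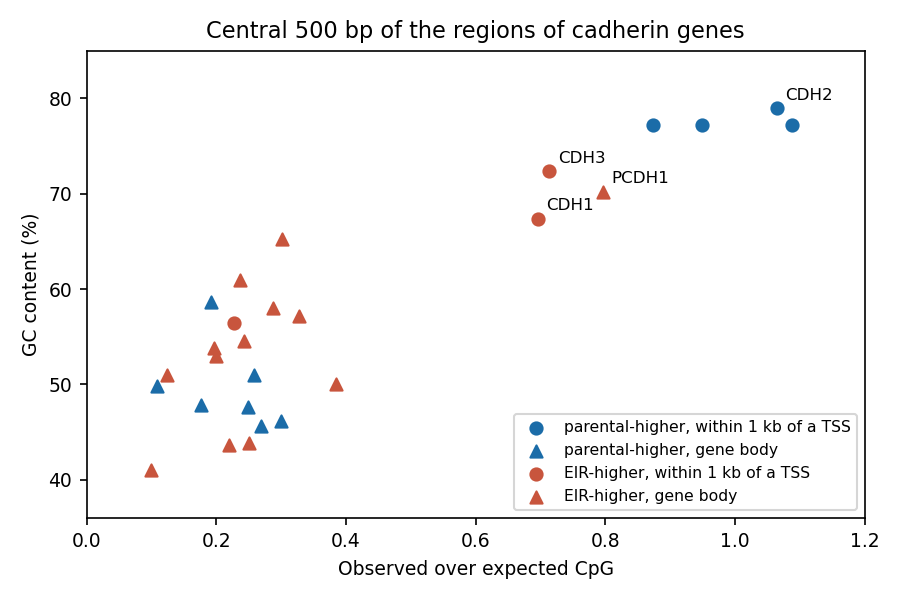
GC content in percent against the ratio of observed to expected CpG in the central 500 bp of the 27 regions, coloured by list. Circles lie within 1 kb of a TSS and triangles elsewhere in a gene body. The parental-higher TSS regions lie at the top right (77.2% GC and more), followed by the EIR-higher regions of *CDH3*, *PCDH1* and *CDH1*.

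Folds of the members were near those of other genes in the same place. The median fold of the parental-higher TSS regions was 2.91 for the 4 members and 2.54 over all protein-coding TSSs, and that of the EIR-higher ones 4.40 for the 3 members and 3.37 over all. In gene bodies the medians were 3.14 and 3.07 in the parental-higher list, and 3.23 and 3.67 in the EIR-higher list. All 27 intervals excluded 1, the lowest bound being 1.19. Yet no member TSS region reached an exact binomial *P* of 1e-04, which 39.9% of all regions at protein-coding TSSs did, and 2 of 20 body regions did (*CDH4* and *CDH22*) against 9.18% of all. Which TSS regions reached that threshold followed the scaling of the EIR tags: the 3 EIR-higher ones with a scaling 1.5 times higher and the 4 parental-higher ones with one 1.5 times lower.

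CTCF, an insulator protein that shapes the clusters and many other loci, has a motif whose core was searched on both strands as CC, any 3 bases, AG, any 2 bases and GGC. Matches lay in the central 500 bp of 5 of 16 EIR-higher member regions (31.3%, against 11.9% of all EIR-higher regions) and of 2 of 11 parental-higher ones (18.2% against 14.5%). Most of the 5 were regions of *CDH23*, and the others were those of *CDH1* and *PCDH1*, so the EIR-higher share rests largely on *CDH23*. The matches of *CDH1*, *PCDH1* and the *CDH23* region of intron 18, as examples at a TSS and in gene bodies, are printed with 15 bases on either side and the match in capitals. Those of *PCDH1* (chr5:141255941-141255982) and *CDH23* (chr10:73444483-73444524) are on the forward strand of GRCh37 and that of *CDH1* (chr16:68771975-68772016) on the reverse.
CDH1, EIR-higher: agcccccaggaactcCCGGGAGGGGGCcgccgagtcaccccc
PCDH1, EIR-higher: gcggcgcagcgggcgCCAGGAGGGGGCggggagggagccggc
CDH23, EIR-higher: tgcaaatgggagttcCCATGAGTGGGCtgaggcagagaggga
The *CDH23* region of intron 18, chr10:73444186-73444822, had 8 parental and 37 EIR tags (27.1 scaled) and a fold of 3.39. The AP-1 motif TGANTCA was in none of the member regions, against 14.1% of all parental-higher and 15.0% of all EIR-higher regions. The letters CAGGTG, the form of the E-box bound by the *CDH1* repressors ZEB1 and ZEB2, were in 4 of 11 parental-higher (36.4% against 35.5%) and 8 of 16 EIR-higher member regions (against 48.9%), shares close to the background. A match is a description of the letters and was not tested as a binding site.

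Other adhesion genes were described as lists. Of 63 genes, 24 (38.1%) had a region within 1 kb of a TSS, 22 of them (34.9%) parental-higher and 2 (3.17%) EIR-higher. The shares of all protein-coding genes were 24.6%, 23.2% and 1.96%. The catenins and other adherens junction partners, which tie cadherins to actin, had 7 of 14, all parental-higher. Among them, *CTNND2* had 26 and 9 tags (fold 3.94), *AFDN* 71 and 27 (3.59), *CTNNB1* (β-catenin) 123 and 92 (1.82) and *CTNNA1* 82 and 62 (1.80). Desmosome genes had 4 of 12, of which *PKP4* (2.64), *PKP3* (2.63) and *DSG2* (2.14) were parental-higher and *PKP1*, a plakophilin, EIR-higher with 8 and 29 tags (2.66, interval 1.19 to 6.73).

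Of 18 other genes of the cadherin superfamily, 6 had a region. *CELSR1* (103 and 33 tags, fold 4.26) and *CELSR2* (82 and 27, fold 4.14), adhesion receptors of planar cell polarity, were parental-higher, and *RET*, a receptor tyrosine kinase on chromosome 10, was EIR-higher with 5 and 24 tags (3.52, interval 1.32 to 11.8). Regulators of cadherin transcription or shedding had 5 of 10, all parental-higher. They included the repressor genes *ZEB2* (44 and 16 tags, fold 3.75), *ZEB1* (192 and 116, fold 2.26), *TWIST1* (78 and 48, fold 2.22) and *TCF3* (114 and 55, fold 2.83). The repressor genes *SNAI1*, *SNAI2* and *TWIST2* of the same list had none. Parental-higher was the usual direction, as 7.58% of all regions at protein-coding TSSs were EIR-higher. The regions of *CDH2* and of *CDH1* intron 2 were parental-higher, and the region within 1 kb of a *CDH1* TSS was EIR-higher. Among regulators of the clusters, 2 of 9 (22.2%, near the 24.6% of all protein-coding genes) had a region, *CTCF* (34 and 9 tags, fold 5.15) and the cohesin gene *SMC3* (19 and 9, fold 2.88), both parental-higher.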

How the data were processed

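The 1 FLAG-SMARCA4 ChIP-seq library of parental cells and 1 of the EIR clone were mapped to their groups by the sample labels. The authors crosslinked cells with EGS and formaldehyde, digested chromatin with MNase, aligned 75 bp single-end reads to hg19 with Bowtie 0.12.9 and called regions with HOMER in histone style at an FDR of 5%, each library being the control of the other. In both lists the deposited parental values are whole tag counts, with 0.5 in place of 0, and the EIR values are a signal scaled by the authors to the parental total. The deposited normalized signal per region (the authors' normalized tag count) gave the parental total. The authors' fold, p-value, score, clonal fold and region-size columns were not used.

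Whole EIR tags were recovered from the step of the scaled values, 0.733, and 100.0% of the scaled values were whole multiples within a tolerance of 0.05 tag. The weakest listed regions had 15 parental or 19 EIR tags, so a gene with fewer could not appear. Regions were joined to all TSSs and gene bodies of GENCODE release 44 mapped to GRCh37, by nearest edge, within 1 kb. Folds, exact binomial tests and Clopper-Pearson intervals (scipy 1.17.1, Python 3.11.15) were computed from the tags. Reads without molecular identifiers are not independent molecules, and intervals cover counting error only. Motifs were searched in the central 500 bp.

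The members and gene lists were chosen with earlier results of these data known. Every member with a region was named, with full values for TSS regions and those that a rule on fold, both lists in 1 gene or most regions in a gene picked. Other adhesion genes were named where EIR-higher or of the largest folds. *CTNNA1*, *CTNNB1*, *DSG2*, *ZEB1* and *TWIST1* were chosen after their values were seen, as were *SNAI1*, *SNAI2* and *TWIST2*, which had no region. Alternatives were other TSS windows and distances, minimum folds and *P* values, scaling, merging, autosomes and a pseudocount. The join and tests were tested on simulated data.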

Additional observations from a re-analysis of the deposited data

How the results depend on the processing

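No paired analysis was possible because each group was 1 library, and for the same reason no library could be left out. With a minimum fold of 4, 2 loci had a TSS region, 0 of them parental-higher, and 2 TSS and 4 body regions were left. At an exact binomial *P* of at most 1e-06 all of these counts were 0, as were those of the TSS at 1e-04, a threshold added after the data were seen, where 2 body regions were left. With EIR tags scaled 1.5 times higher and the 1e-04 threshold kept, 3 loci, 3 TSS regions and 7 body regions were left, 0 of them parental-higher, and with 1.5 times lower 4 TSS and 6 body regions, 0 of them EIR-higher. The median fold of the parental-higher TSS regions moved from 2.91 to 1.94 and 4.36. With the 5′ end of the gene record as the start, 1 locus (*CDH1*) was EIR-higher. A 5 kb window added *CDH4* and *CDH1* as parental-higher and *PCDH1* as EIR-higher, and 500 bp lost *CDH1*. Without chromosome 10, chosen after the data were seen, 10 body regions were left, 6 of them parental-higher and 4 EIR-higher. The smallest of the 27 folds, 1.71, exceeds the scaling factor of 1.5, so no fold could reverse under scaling. With higher scaling 7 of 11 parental-higher regions, and with lower scaling 9 of 16 EIR-higher regions, were no longer past an exact binomial *P* of 0.05, while with a pseudocount of 1 tag all 27 stayed past it. The lists hold only regions called by the authors, so no alternative could add one.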
